A study of Arabidopsis thaliana with 6 samples.

Results

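The libraries labelled *val2* were compared with those of wild type (WT, Col-0) over the nuclear genes of Arabidopsis, that is, the genes with a locus code on chromosomes 1 to 5. Of the 24186 such genes among the 24292 in the table of estimated counts, 21095 passed the filter of edgeR on low counts and are the genes described here, and 3091 were not tested. A tested gene reached at least 0.35 CPM (counts scaled per megacount of the library, here by its size alone) in its second-highest library, and a gene not tested at most 0.338. RNA-seq was carried out on 6 libraries, 2 each from *val2* (*val2-1*), *val1* (*val1-2*) and WT plants, all in the Col-0 background. Each library came from 0.5 g of shoot apices, dissected from plants 6 wk of age that had been kept in short days (SD, 8 h of light and 16 h of darkness) at 22 °C. The mutant *val2-1* is 1 insertion line of the SAIL collection, and no second allele was sequenced. The paper calls the 2 libraries of a genotype biological replicates, but the labels do not say that they came from separate plants, so that the p-values measure the spread between these samples only.

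*VAL2* belongs to a small family of B3 domain proteins, with *VAL1* and *VAL3*. In plants, VAL1 and VAL2 bind the RY motif (TGCATG) and recruit Polycomb complexes and histone deacetylases to genes such as the floral repressor *FLC* and the regulators of seed maturation, which are thereby silenced. VAL1 and VAL2 overlap in function, so that the loss of VAL2 alone is known for mild effects.

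The libraries labelled *val2* held 32879500 and 29875539 counts in replicates 1 and 2, against 26637464 and 33474422 counts in WT replicates 1 and 2. Expression is given as CPM after TMM scaling, for replicate 1 and then replicate 2 of each genotype. The chi-square per gene between replicates, near 1 under pure counting error, was 9.67 in the libraries labelled *val2* and 11.8 in WT, and the biological coefficient of variation across genes was 10.7%. Fold changes and their standard errors (SE) come from 1 edgeR fit of the 6 libraries with 3 residual degrees of freedom. Every adjusted p comes from the quasi-likelihood test of edgeR, adjusted after Benjamini and Hochberg over all genes tested.

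*VAL2* itself was checked first. *VAL2* (AT4G32010) is a plus-strand gene of chromosome 4 (TAIR10.1, 15479379 to 15485354). It had 149.8 and 164 CPM in the libraries labelled *val2*, 36.1 and 39.1 CPM in *val1* and 39.9 and 40.9 CPM in WT. Its transcript level was thus higher, not lower, in both libraries that carry its mutant label. The log2 fold change was 1.96 (SE 0.08), 3.88-fold higher, with an edgeR adjusted p of 6.15e-06. Which part of the gene the reads cover cannot be seen in a table of 1 value a gene, and *VAL2* shares its place with the antisense RNA AT4G08635. A high total for *VAL2* therefore gives no answer on whether an intact transcript was made, and the label was kept as the submitters gave it.

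The relatives of *VAL2* moved less. *VAL1* (AT2G30470) had 32.7 and 39.0 CPM in the libraries labelled *val2*, 12.5 and 15.7 CPM in *val1* and 40.3 and 55.4 CPM in WT. Both libraries labelled *val2* lay below WT, with a log2 fold change of -0.42 (SE 0.16), but the difference did not pass the test (edgeR adjusted p = 0.106). It did pass with the replicate block (0.00959) and without WT replicate 1 (0.035). *VAL3* (AT4G21550) had 4.46 and 4.80 CPM in the libraries labelled *val2*, against 5.00 and 4.43 CPM in WT, and these ranges overlap (edgeR adjusted p = 0.940).

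In the comparison of the libraries labelled *val2* with WT, 673 genes (3.19% of those tested) were differentially expressed genes (DEGs), with an adjusted p below 0.05 and a change of at least 2-fold. There were 194 upregulated DEGs (0.920%) and 479 downregulated DEGs (2.27%), so that 71.2% of the DEGs were lower. With no threshold on the fold change, 3956 genes passed the test (18.8%), 1838 of them higher (8.71%) and 2118 lower (10.0%). In all 673 DEGs both libraries of one genotype lay beyond both of the other, which was also so for 62.0% of all tested genes. Changes of 4-fold or more were found in 48 upregulated and 82 downregulated DEGs. The median log2 fold change over all tested genes was 0. The number of DEGs fell to 424 without WT replicate 2 and to 388 without *val2* replicate 1, and the share of DEGs that were lower was 60.2% when libraries were scaled by their size alone. With limma on log2(TPM + 0.1), from the deposited values scaled for length and depth (TPM), 56% of the DEGs were lower. In bulk tissue of this kind, fewer cells of a type and less RNA per cell cannot be told apart.

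**Figure D1:**
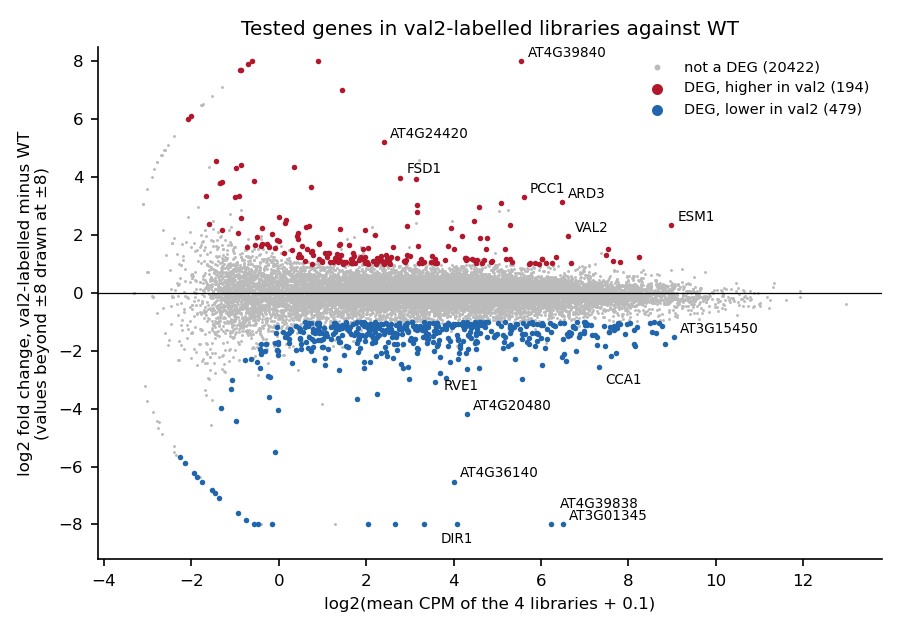
Log2 fold change of each tested nuclear gene in the libraries labelled *val2* against WT (vertical axis) by its mean level over the 4 libraries (horizontal axis, log2 CPM + 0.1). The 194 upregulated DEGs are red, the 479 downregulated DEGs blue and the other genes grey. Values beyond ±8 are drawn at ±8, and the DEGs there have 0 or near 0 CPM in one genotype.

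The largest rises were described for the 15 DEGs with the largest positive log2 fold change among those with a mean of at least 5 CPM. The first, AT4G39840, annotated as a cell wall integrity and stress response component-like protein, had 86.3 and 100.2 CPM in the libraries labelled *val2*, against 0 and 0 CPM in WT. It was at least 863-fold higher, taking WT at a floor of 3 counts per library, which covers counting error only. Its locus, on the plus strand of chromosome 4, overlaps AT4G09925 and the long non-coding RNA AT4G39838 on the minus strand. AT4G39838 had 0 and 0 CPM in the libraries labelled *val2*, against 139 and 162 CPM in WT, and was at least 1550-fold lower. In *val1*, replicate 1 had 28.85 CPM on each of these genes, and replicate 2 had 0 CPM on AT4G39840 and 77.5 CPM on AT4G39838. Whether the counting used the strand is not given in the sources used here, so reads of these overlapping genes may have been divided between them. The call of AT4G39840 (edgeR adjusted p = 0.0136) was lost without any one of the 4 libraries compared, at 0.0508 without WT replicate 1, 0.0696 without WT replicate 2, 0.0595 without *val2* replicate 1 and 0.0563 without *val2* replicate 2.

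Among the other large rises, AT4G24420, annotated as an RNA-binding protein of the RRM family, had 9.50 and 10.8 CPM in the libraries labelled *val2*, against 0.318 and 0.226 CPM in WT. It was 37.2-fold higher (log2 fold change 5.22, SE 0.30, edgeR adjusted p = 2.50e-05), and the *val1* libraries, at 0.446 and 0.260 CPM, were near WT. AT4G22280, annotated as an F-box family protein, had 15.4 and 16.3 CPM in the libraries labelled *val2*, against 1.71 and 2.101 CPM in WT, a log2 fold change of 3.05. *CRK23*, a cysteine-rich receptor-like kinase, had 16.9 and 15.8 CPM in the libraries labelled *val2*, against 1.11 and 1.00 CPM in WT, a log2 fold change of 3.95. In *val1* these 2 genes had 2.76 and 2.73 CPM (AT4G22280) and 0.689 and 0.130 CPM (*CRK23*).

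*FSD1*, the iron superoxide dismutase of the chloroplast, had 14.5 and 11.0 CPM in the libraries labelled *val2*, 14.1 and 12.1 CPM in *val1* and 0.755 and 0.840 CPM in WT. *FSD1* was 15.8-fold higher on average in the libraries labelled *val2* (edgeR adjusted p = 1.92e-05). Both mutants are set against the same WT libraries. *ARD3*, an acireductone dioxygenase of the methionine salvage cycle, had 153 and 167 CPM in the libraries labelled *val2*, against 16.9 and 19.4 CPM in WT. This was 8.79-fold higher (log2 fold change 3.14, SE 0.12), with the *val1* libraries in between at 66.0 and 55.2 CPM. AT1G19960, annotated as a transcription factor, had 48.8 and 36.3 CPM in the libraries labelled *val2*, against 6.16 and 4.69 CPM in WT, a log2 fold change of 2.98. The *val1* libraries, at 65.9 and 51.8 CPM, were also above WT.

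*PCC1*, a small membrane protein under the control of both pathogens and the clock, had 95.2 and 80.7 CPM in the libraries labelled *val2*, against 11.0 and 6.79 CPM in WT (log2 fold change 3.32, SE 0.20). Its close relative AT3G22235 had 66.1 and 55.9 CPM, against 7.39 and 6.66 CPM in WT. Only 61.8% of the 50-base words of *PCC1* exons and 14.3% of those of AT3G22235 occur once in the genome, so the 2 may share reads. *LURP1*, named for its induction by a downy mildew, had 16.7 and 14.1 CPM in the libraries labelled *val2*, against 2.90 and 1.62 CPM in WT. The transcription factor genes *WRKY51* and *WRKY54*, both tied to salicylic acid responses, rose with log2 fold changes of 2.47 and 2.35. *WRKY51* had 38.4 and 36.9 CPM in the libraries labelled *val2*, against 7.07 and 6.497 CPM in WT, and *WRKY54* had 70.6 and 60.6 CPM, against 13.4 and 12.5 CPM in WT. In *val1*, *PCC1* had 86.5 and 72.0 CPM, AT3G22235 had 69.1 and 57.6 CPM and *LURP1* had 25.2 and 28.1 CPM. *WRKY51* had 11.75 and 13.6 CPM and *WRKY54* had 49.3 and 48.7 CPM there, and each of these genes lay above both WT libraries.

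*ESM1*, which steers the breakdown of glucosinolates away from nitriles, had 897 and 799.6 CPM in the libraries labelled *val2*, 1221 and 1246 CPM in *val1* and 176 and 155 CPM in WT. It was 5.13-fold higher in the libraries labelled *val2* (log2 fold change 2.36, SE 0.09, edgeR adjusted p = 4.37e-06), with 75.1% of its exonic 50-base words unique. The cytochrome P450 gene AT3G44970 had 14.2 and 10.8 CPM in the libraries labelled *val2*, against 2.74 and 2.33 CPM in WT. Its near neighbour *XTH31*, a xyloglucan endotransglucosylase/hydrolase, had 28.8 and 22.0 CPM, against 6.04 and 4.66 CPM in WT. AT3G44970 and *XTH31* were 4.94-fold and 4.77-fold higher. In *val1*, AT3G44970 had 7.90 and 8.015 CPM and *XTH31* had 28.7 and 28.4 CPM, also above both WT libraries. Of the 15 genes, all but AT4G39840 kept their call when any 1 library was left out.

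**Figure D2:**
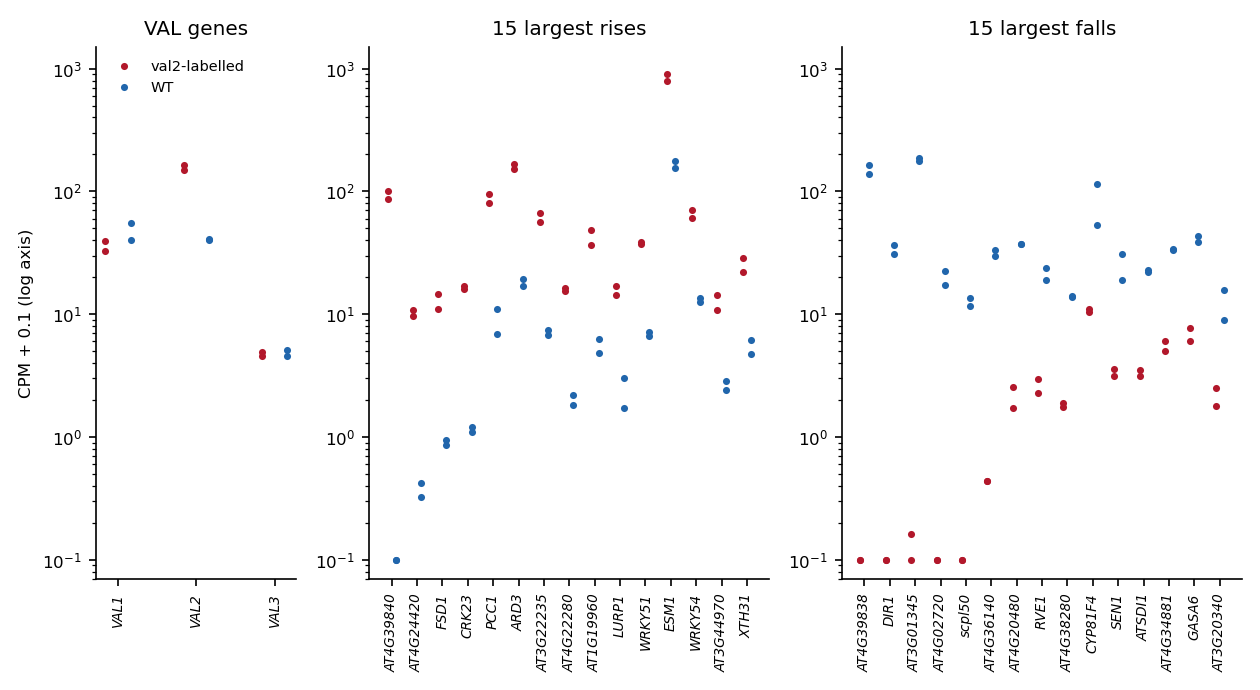
Level of *VAL1*, *VAL2* and *VAL3* and of the DEGs with the 15 largest rises and falls in each library labelled *val2* (red) and each WT library (blue), as CPM + 0.1 on a log axis. *VAL2* lies near 150 CPM in the libraries labelled *val2* and near 40 in WT, and genes at 0 CPM are drawn at the bottom.

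Of the named and listed DEGs, 97 had 250 bases upstream of the gene start to search. The RY motif bound by VAL proteins (TGCATG, on either strand) was found in 6 of them (6.19%), against 7.48% of all tested genes. It is shown for the 5 whose window holds no other annotated gene, 3 of them among the largest rises, to let the surrounding sequence be seen. The windows end at the base before the gene start, are read 5′ to 3′ on the strand of the gene from the TAIR10.1 assembly of RefSeq, and have the motif in capitals (CATGCA where it is on the other strand). They are AT4G24420 (chr4:12626390-12626639, plus strand), AT4G22280 (chr4:11778152-11778401, minus strand), AT1G19960 (chr1:6927486-6927735, plus strand), *TT8* (chr4:6181631-6181880, plus strand) and *TPS10* (chr1:22181741-22181990, minus strand).
AT4G24420: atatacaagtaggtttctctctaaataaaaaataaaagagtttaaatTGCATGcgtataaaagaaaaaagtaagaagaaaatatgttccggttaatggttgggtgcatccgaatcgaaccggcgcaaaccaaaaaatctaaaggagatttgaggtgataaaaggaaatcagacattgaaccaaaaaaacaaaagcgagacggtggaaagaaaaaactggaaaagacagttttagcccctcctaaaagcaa
AT4G22280: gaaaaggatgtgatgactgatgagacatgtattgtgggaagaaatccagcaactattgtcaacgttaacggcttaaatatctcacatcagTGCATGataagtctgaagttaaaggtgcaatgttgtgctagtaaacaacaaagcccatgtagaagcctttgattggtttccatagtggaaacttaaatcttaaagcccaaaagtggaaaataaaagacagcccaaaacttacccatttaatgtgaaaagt
AT1G19960: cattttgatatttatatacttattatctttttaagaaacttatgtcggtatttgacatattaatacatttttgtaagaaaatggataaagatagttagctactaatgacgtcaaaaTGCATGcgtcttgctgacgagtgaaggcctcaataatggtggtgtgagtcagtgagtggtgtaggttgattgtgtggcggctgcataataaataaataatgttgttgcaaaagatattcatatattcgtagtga
TT8: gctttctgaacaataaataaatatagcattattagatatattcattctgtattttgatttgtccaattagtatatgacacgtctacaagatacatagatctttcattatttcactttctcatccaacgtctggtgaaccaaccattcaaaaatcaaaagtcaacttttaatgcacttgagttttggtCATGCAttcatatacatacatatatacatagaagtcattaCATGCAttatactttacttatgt
TPS10: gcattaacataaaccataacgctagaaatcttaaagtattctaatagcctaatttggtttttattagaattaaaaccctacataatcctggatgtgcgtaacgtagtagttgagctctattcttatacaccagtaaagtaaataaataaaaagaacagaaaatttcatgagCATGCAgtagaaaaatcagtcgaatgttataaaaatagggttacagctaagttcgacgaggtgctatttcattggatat
*TT8* has 2 matches, 63 and 23 bases before its start. The match lies 203 bases before the start in AT4G24420, 160 in AT4G22280, 134 in AT1G19960 and 79 in *TPS10*. The first 4 genes rose in the libraries labelled *val2* and *TPS10* fell, and a match of letters is not a bound site.

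Over a window of 300 bases (250 before to 50 after the gene start), the RY motif was in 8.76% of upregulated DEGs and 10.0% of downregulated DEGs, against 8.45% of all tested genes. The G-box (CACGTG), bound by bHLH and bZIP factors, was in 6.70% and 9.39%, against 8.60%. The W-box core (TTGAC) of WRKY factors was in 45.4% of upregulated and 54.5% of downregulated DEGs, against 50.6%. The element CGCGTT was in 3.61% and 3.34%, against 3.88%, and the core of the evening element (AATATCT) in 14.9% and 11.7%, against 11.6%. All were counted on both strands, and no share of the DEGs was tested against that of all genes.

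The largest falls contained 5 genes with at most 3 counts in each library labelled *val2*, for which the fold is a lower bound. The long non-coding RNA AT4G39838 is given above. AT3G01345, annotated as an uncharacterized protein, had 0.0615 and 0 CPM in the libraries labelled *val2*, 0.284 and 0 CPM in *val1* and 185 and 176 CPM in WT, and was at least 1860-fold lower. *DIR1*, a lipid transfer protein needed for the mobile signal of systemic acquired resistance, had 0 and 0 CPM in the libraries labelled *val2*, 0 and 0.0649 CPM in *val1* and 36.4 and 30.7 CPM in WT, at least 345-fold lower. AT4G02720, annotated as a Ras-induced vulval development antagonist protein, had 0 CPM in all 4 mutant libraries, against 17.3 and 22.2 CPM in WT. The serine carboxypeptidase-like gene *scpl50* had 0 and 0 CPM in the libraries labelled *val2*, 7.82 and 8.70 CPM in *val1* and 13.5 and 11.5 CPM in WT.

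*DIR1*, AT4G02720 and *scpl50* each lie on the opposite strand of another gene that was higher in the libraries labelled *val2*. These partners were looked up after the values of the first 3 were seen. AT5G48480, which overlaps *DIR1*, had 120 and 99.5 CPM in the libraries labelled *val2*, against 58.9 and 57.2 CPM in WT (log2 fold change 0.92, edgeR adjusted p = 0.000776). AT4G02725, which overlaps AT4G02720, had 52.4 and 54.2 CPM, against 30.4 and 29.4 CPM in WT (0.83), and AT1G15002, which overlaps *scpl50*, had 48.9 and 48.8 CPM, against 31.5 and 33.2 CPM in WT (0.59). All 3 partners passed the test, and the part of the counting in these falls was not tested. AT3G01345 overlaps no annotated gene.

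AT4G36140, annotated as a TIR-NBS-LRR disease resistance protein, had 0.338 and 0.340 CPM in the libraries labelled *val2*, 24.6 and 24.95 CPM in *val1* and 29.7 and 33.4 CPM in WT. It was 91.8-fold lower (log2 fold change -6.52, SE 0.16), with the smallest p of any gene tested (edgeR adjusted p = 5.71e-07). AT4G20480, annotated as an endonuclease/glycosyl hydrolase, had 1.63 and 2.45 CPM in the libraries labelled *val2*, 37.2 and 36.3 CPM in *val1* and 37.3 and 37.3 CPM in WT. Both were thus low in the libraries labelled *val2*, with the *val1* libraries at or not far below WT. AT4G38280, a hemolysin-III-like membrane protein, was also low in the libraries labelled *val2*, with 1.66 and 1.80 CPM, against 13.6 and 13.9 CPM in WT. The *val1* libraries, at 14.95 and 15.7 CPM, lay slightly above WT. Of its exonic 50-base words, 67.2% are unique. AT4G34881 had 6.00 and 4.90 CPM in the libraries labelled *val2*, 32.7 and 33.8 CPM in *val1* and 34.1 and 33.5 CPM in WT. Only 16.8% of its exonic 50-base words are unique. AT4G34881 overlaps AT4G34890 on the opposite strand, and AT4G38280 overlaps AT4G38290 on the same strand. AT4G36140 overlaps AT4G36130 and AT4G36150, and AT4G36150, also a TIR-NBS-LRR gene and looked up after its values were seen, had 11.6 and 14.6 CPM in the libraries labelled *val2*, against 24.1 and 28.4 CPM in WT (2.005-fold lower, edgeR adjusted p = 0.00226).

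The other large falls were in genes of differing function. *RVE1*, a MYB-like factor of the clock's output, had 2.18 and 2.86 CPM in the libraries labelled *val2*, against 18.95 and 23.63 CPM in WT, and is taken up with the clock. *CYP81F4*, a P450 that modifies indole glucosinolates, had 10.2 and 11.0 CPM in the libraries labelled *val2*, against 53.0 and 114 CPM in WT, so that the WT libraries differed more from each other than did those labelled *val2*. In *val1* it had 55.7 and 63.05 CPM, within the WT range. *SDI1* (AT5G48850, listed as *ATSDI1*), induced by sulfur deficiency, had 3.045 and 3.404 CPM, against 21.8 and 22.6 CPM in WT, a log2 fold change of -2.78. The *val1* libraries, at 7.17 and 7.07 CPM, were also below WT. *GASA6*, a small peptide gene induced by gibberellin, had 7.57 and 5.92 CPM in the libraries labelled *val2*, 21.5 and 20.18 CPM in *val1* and 43.5 and 38.4 CPM in WT (log2 fold change -2.60). AT3G20340 had 1.69 and 2.38 CPM in the libraries labelled *val2*, 0.243 and 0.422 CPM in *val1* and 8.82 and 15.5 CPM in WT. All 15 genes kept their call when any 1 library was left out.

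Among the DEGs with the highest CPM, the upregulated ones were *ESM1* and the enzymes *MS2* and *IMD1*. *MS2* (AT3G03780), a methionine synthase, had 454 and 395 CPM in the libraries labelled *val2*, against 174 and 188 CPM in WT (log2 fold change 1.23, SE 0.10). *IMD1*, an isopropylmalate dehydrogenase of leucine and glucosinolate synthesis, had 344 and 266 CPM, against 139.9 and 153 CPM in WT (1.06, SE 0.12). In *val1*, *MS2* had 455.5 and 518 CPM and *IMD1* had 291 and 297 CPM, also above both WT libraries. The downregulated ones were AT3G15450, AT5G59732 and *PAL2*. In *val1*, AT3G15450 had 74.9 and 194 CPM, AT5G59732 had 191 and 112 CPM and *PAL2* had 175 and 192 CPM, all below both WT libraries. *PAL2*, a phenylalanine ammonia-lyase at the entry to phenylpropanoids, had 245 and 291 CPM in the libraries labelled *val2*, against 527 and 669 CPM in WT (-1.16, SE 0.13). AT3G15450, an aluminum-induced protein, had 228 and 316 CPM, against 643 and 915 CPM in WT (edgeR adjusted p = 0.0229), and lost its call without WT replicate 2 (0.12), without *val2* replicate 1 (0.161) and without *val2* replicate 2 (0.0737). The non-coding RNA AT5G59732 had 306 and 109 CPM, against 384 and 1032 CPM in WT (edgeR adjusted p = 0.0490), and lost it without WT replicate 2 (0.324) and without *val2* replicate 2 (0.206).

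The circadian clock turns on a set of MYB-like factors expressed in the morning, a series of pseudo-response regulators through the day and an evening complex. Of 24 clock genes tested, 8 were downregulated DEGs (against 2.27% of all tested genes) and none was an upregulated one. At the adjusted p alone, 11 were lower (45.8%, against 10.0% of all tested genes) and 2 higher (8.33%, against 8.71%), and the median log2 fold change was -0.54. The morning factor *CCA1* had 49.1 and 44.4 CPM in the libraries labelled *val2*, 180 and 137 CPM in *val1* and 279 and 271 CPM in WT. Its log2 fold change was -2.56 (SE 0.13, edgeR adjusted p = 1.58e-05), a 5.88-fold fall. Its partner *LHY* had 128 and 119.9 CPM in the libraries labelled *val2*, 333 and 277 CPM in *val1* and 459 and 432 CPM in WT, a log2 fold change of -1.85. *RVE1* fell by 3.08 on the log2 scale, with 7.29 and 7.17 CPM in *val1*. The activators *RVE8* and *RVE4* had 27.8 and 25.9 CPM and 56.0 and 51.6 CPM in the libraries labelled *val2*, against 82.7 and 74.6 CPM and 95.4 and 95.3 CPM in WT. Every one of these 5 genes was lower in both libraries labelled *val2* than in any WT library. Of all tested genes, 62.0% had both libraries of one genotype beyond both of the other.

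*LNK2*, a coactivator that works with RVE8, had 270.2 and 274 CPM in the libraries labelled *val2*, against 564 and 545 CPM in WT (log2 fold change -1.03). Of the CYCLING DOF FACTOR genes, which repress *CONSTANS*, *CDF2* had 9.54 and 12.6 CPM, against 33.4 and 35.9 CPM in WT (-1.65), and *CDF5* had 9.94 and 11.2 CPM, against 19.9 and 24.3 CPM in WT (-1.07). *CDF1* and *CDF3* also fell, by 0.92 and 0.69 on the log2 scale. *CDF1* did not pass in 3 of 15 alternatives to the main fit. The call of *CDF3* was lost without WT replicate 2 or either library labelled *val2*. Among the pseudo-response regulators the directions were mixed. Of the exonic 50-base words of *PRR9*, 58.9% are unique. *PRR9* had 8.52 and 7.42 CPM in the libraries labelled *val2*, against 17.9 and 15.3 CPM in WT (-1.06), with a call that was lost without *val2* replicate 1 (0.051) or replicate 2 (0.0665). *PRR7*, at 113 and 124 CPM, rose by a log2 fold change of 0.30 over 97.0 and 94.7 CPM in WT, as did the evening gene *GI* (0.30). Neither of these 2 rises was kept when any one of the 4 libraries was left out. *TOC1*, the evening partner of the morning factors, had 73.5 and 89.6 CPM, against 75.7 and 76.8 CPM in WT, and did not pass (edgeR adjusted p = 0.580). *ELF3*, *LUX* and *ZTL* did not pass either, at log2 fold changes of -0.31, -0.26 and -0.16. Leaving out 1 library gave between 8 and 12 lower clock genes. The hour of dissection is not given in the sources used here.

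The G-box is bound by factors of light and clock signalling and was in the 250 bases upstream of 5 of the 8 downregulated clock DEGs. Over the 97 named and listed DEGs it was found in 12 (12.4%), against 7.22% of all tested genes. The windows of the 3 genes that fell most are shown, with the G-box in capitals, as read from the same assembly for *RVE1* (chr5:5692993-5693242, minus strand), *CCA1* (chr2:19245341-19245590, plus strand) and *LHY* (chr1:37872-38121, minus strand).
RVE1: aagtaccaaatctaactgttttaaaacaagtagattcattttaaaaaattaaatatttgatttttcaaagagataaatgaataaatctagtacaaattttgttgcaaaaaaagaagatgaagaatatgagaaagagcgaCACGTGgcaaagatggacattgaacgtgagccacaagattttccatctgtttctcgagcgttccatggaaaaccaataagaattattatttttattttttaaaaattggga
CCA1: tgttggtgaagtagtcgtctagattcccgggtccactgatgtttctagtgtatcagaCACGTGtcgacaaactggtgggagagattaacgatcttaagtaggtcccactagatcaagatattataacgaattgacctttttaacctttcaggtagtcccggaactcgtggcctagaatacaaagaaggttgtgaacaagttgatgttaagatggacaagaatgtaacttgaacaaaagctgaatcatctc
LHY: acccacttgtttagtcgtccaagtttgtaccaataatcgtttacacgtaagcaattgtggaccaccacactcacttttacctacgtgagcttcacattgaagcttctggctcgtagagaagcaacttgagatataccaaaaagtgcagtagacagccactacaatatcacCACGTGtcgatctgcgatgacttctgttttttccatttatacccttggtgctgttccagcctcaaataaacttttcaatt
The motif lies 111, 193 and 80 bases before the start of *RVE1*, *CCA1* and *LHY*. These genes were picked for their fall, so the share is a description.

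Of 13 genes for starvation markers and trehalose phosphate enzymes, 6 were downregulated DEGs (against 2.27% of all tested genes), with a median log2 fold change of -1.08. At the adjusted p alone 8 were lower (61.5%, against 10.0%) and 2 higher (15.4%, against 8.71%). *ASN1* (*DIN6*), the asparagine synthetase of the dark response, had 59.7 and 80.9 CPM in the libraries labelled *val2*, 35.5 and 60.5 CPM in *val1* and 264 and 369 CPM in WT (log2 fold change -2.17, SE 0.25, edgeR adjusted p = 0.00113). *DIN10*, a raffinose synthase family gene, had 62.8 and 97.3 CPM in the libraries labelled *val2*, against 229 and 453 CPM in WT (-2.09). *SEN1* (*DIN1*) had 3.01 and 3.51 CPM in the libraries labelled *val2*, 2.51 and 8.66 CPM in *val1* and 18.9 and 30.6 CPM in WT (-2.93). In all 3, WT replicate 2 was higher than WT replicate 1. Both WT libraries were above either library labelled *val2*, and none of the DEGs had genotypes that overlapped.

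The trehalose phosphate synthase-like genes, of the class without clear synthase activity, moved in both directions. *TPS8*, *TPS9*, *TPS10* and *TPS11* fell by 1.08, 0.83, 1.08 and 1.47 on the log2 scale, while *TPS5* had 28.3 and 27.7 CPM in the libraries labelled *val2*, against 23.7 and 18.8 CPM in WT, and rose (0.40). *TPS11* had 44.0 and 63.1 CPM in the libraries labelled *val2*, against 116 and 181 CPM in WT. *TPS1*, the active synthase, had 122 and 117 CPM, against 102 and 94.9 CPM in WT, a small rise (0.29). Calls of this list rested on single libraries. Without *val2* replicate 1, WT replicate 2 or *val2* replicate 2 no member was higher, and without *val2* replicate 1 only 2 genes were lower, with *DIN10* at 0.0552, *TPS8* at 0.0885, *TPS9* at 0.133, *TPS10* at 0.0558 and *TPS11* at 0.109. Without WT replicate 2, 5 genes were lower, with *TPS8* at 0.0637, *TPS9* at 0.12 and *TPS11* at 0.0786.

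Of 27 genes of the cell cycle, 5 were upregulated DEGs (against 0.920% of all tested genes), 13 were higher at the adjusted p (48.1%, against 8.71%) and 1 was lower, with a median log2 fold change of 0.37. The members that rose were mostly of the S phase. The 6 subunits of the MCM helicase that opens the DNA for replication, *MCM2* to *MCM7*, rose with log2 fold changes between 0.87 and 1.16. *MCM7* had 85.8 and 94.6 CPM in the libraries labelled *val2*, 87.0 and 90.2 CPM in *val1* and 41.0 and 39.5 CPM in WT (1.16, SE 0.08, edgeR adjusted p = 8.40e-05). *MCM2*, at 80.0 and 78.5 CPM against 40.2 and 39.2 CPM in WT, had a log2 fold change of 0.997 and so stayed just under the 2-fold threshold. *PCNA1* and *PCNA2*, the sliding clamp, had 53.3 and 47.4 CPM and 52.9 and 57.0 CPM in the libraries labelled *val2*, against 23.1 and 21.8 CPM and 24.0 and 28.1 CPM in WT. All 8 of these genes lay above WT in both libraries labelled *val2*, while 62.0% of all tested genes had no overlap of the genotypes. With 1 library left out, the log2 fold changes of the 8 stayed between 0.832 (*MCM4*) and 1.29 (*MCM6*).

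The licensing factors *CDC6* and *CDT1A* rose less, with log2 fold changes of 0.84 and 0.37, as did the D-type cyclin *CYCD3;1* (0.47) and the kinase *CDKB1;1* (0.57). The mitotic activators *CDC20.1* and *CDC20.2*, neighbours of near-identical sequence, moved in opposite directions. *CDC20.1* had 32.9 and 36.9 CPM in the libraries labelled *val2*, against 55.1 and 48.6 CPM in WT, and *CDC20.2* had 33.4 and 40.0 CPM, against a mean of 25.1 CPM in WT. As only 66.8% and 63.7% of their 50-base words are unique, reads may have been split between them. The 13 other members did not pass the test. The count of 13 higher genes was 9 without WT replicate 2 or without *val2* replicate 1, and without *val2* replicate 1 none was lower.

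**Figure D3:**
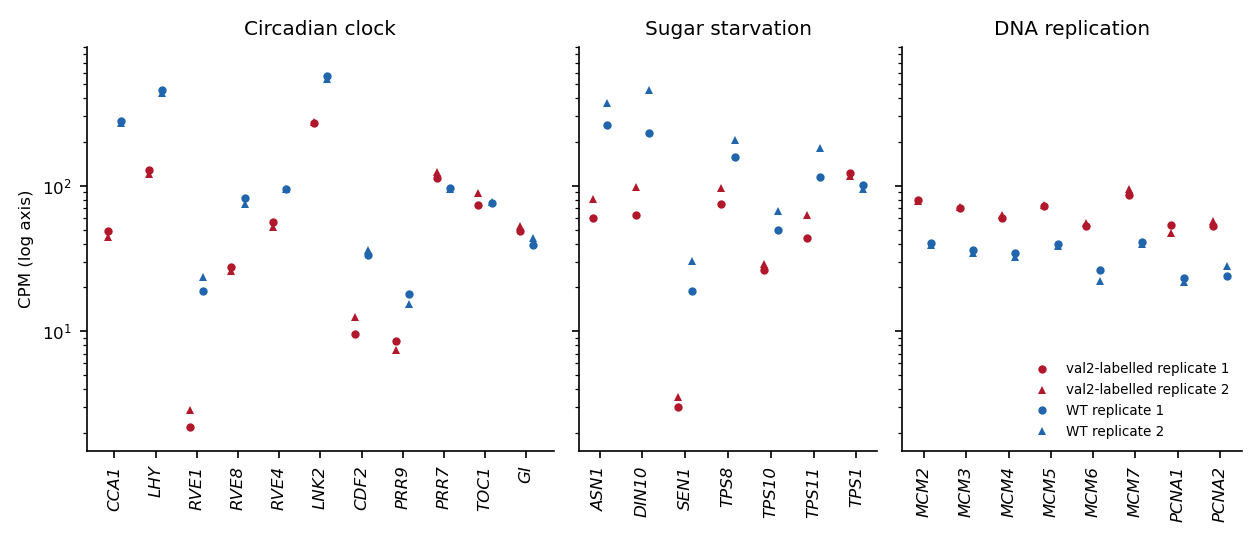
CPM (log axis) of clock, sugar starvation and DNA replication genes in *val2* replicates 1 and 2 (red) and WT replicates 1 and 2 (blue). *CCA1*, *LHY* and *RVE1* and the starvation genes other than *TPS1* are lower in both libraries labelled *val2*. *TOC1* is at WT level, *TPS1*, *PRR7* and *GI* have small rises, and the *MCM* and *PCNA* genes are higher.

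Of 22 genes of flavonoid and anthocyanin synthesis, 5 were upregulated DEGs (against 0.920% of all tested genes). At the adjusted p, 11 were higher (50%, against 8.71%) and none lower, with a median log2 fold change of 0.55. The bHLH regulator *TT8* had 4.74 and 4.32 CPM in the libraries labelled *val2*, 8.18 and 8.70 CPM in *val1* and 1.87 and 1.88 CPM in WT (log2 fold change 1.27, SE 0.18, edgeR adjusted p = 0.00242). Of the enzymes, *DFR*, which reduces dihydroflavonols, had 87.6 and 68.9 CPM in the libraries labelled *val2*, against 30.8 and 45.9 CPM in WT (1.03). *F3'H*, the flavonoid hydroxylase, had 13.8 and 12.5 CPM, against 5.04 and 6.56 CPM in WT (1.18), and the anthocyanin malonyltransferase *5MAT* had 9.94 and 8.10 CPM, against 3.14 and 2.84 CPM in WT (3.02-fold higher). *CHS*, at the start of the pathway, rose less (0.48). Fewer genes of this list were higher without *val2* replicate 1. The glycosyltransferase gene *UGT79B1* rose by a log2 fold change of 1.32, between 0.965 and 1.84 with 1 library left out.

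Glucosinolates are the sulfur-rich defense compounds of the cabbage family. Of 35 genes for them, 4 were upregulated DEGs (*ESM1*, *CYP79F1*, *CYP79F2* and *AOP2*), against 0.920% of all tested genes. At the adjusted p, 15 were higher (42.9%, against 8.71%) and 5 lower (14.3%, against 10.0%), with a median log2 fold change of 0.26. The CPM of the listed genes summed to 9865 and 9186 in the libraries labelled *val2*, against 9245 and 9376 in WT, and these ranges overlap. *CYP79F1*, which makes its aldoximes, had 289 and 222 CPM in the libraries labelled *val2*, 327 and 372 CPM in *val1* and 94.7 and 110.2 CPM in WT (log2 fold change 1.32, SE 0.14, edgeR adjusted p = 0.000617). The regulator *MYB29* rose by a log2 fold change of 0.82, the chain elongation enzymes *MAM1* and *BCAT4* by 0.60 and 0.67, and the P450 *CYP83A1* by 0.60. *AOP2*, of a family that acts on glucosinolate side chains, had 13.0 and 8.27 CPM in the libraries labelled *val2*. It had 52.7 and 42.4 CPM in *val1* and 4.85 and 3.88 CPM in WT. Its call was lost without WT replicate 2, at a log2 fold change of 1.14, and enzyme activity was not measured. The genes that fell were *MYB51*, a regulator of the indolic pathway (-0.81), the transporter *GTR1* (-0.62), *NSP5* (-0.44) and the myrosinases *TGG1* and *TGG2* (-0.35 and -0.23). *CYP81F4*, which modifies indole glucosinolates and is among the largest falls given above, is a downregulated DEG outside this list. Without *val2* replicate 1 or replicate 2, 2 genes of the list were lower.

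Salicylic acid is the hormone of defense against biotrophic pathogens. Of 20 genes of this pathway tested, 4 were upregulated DEGs (against 0.920% of all tested genes). At the adjusted p, 8 were higher (40%, against 8.71%) and 3 lower (15%, against 10.0%), with a median log2 fold change of 0.38. *NIMIN1*, which binds the receptor NPR1, had 7.17 and 7.15 CPM in the libraries labelled *val2*, 4.90 and 3.67 CPM in *val1* and 1.55 and 2.04 CPM in WT (1.99, SE 0.22, edgeR adjusted p = 0.000902). The marker *PR1* had 22.7 and 30.9 CPM, against 13.2 and 10.3 CPM in WT (1.19). *WRKY38*, a repressor of basal defense, had 42.0 and 43.5 CPM in the libraries labelled *val2*, 11.3 and 11.3 CPM in *val1* and 10.3 and 12.7 CPM in WT (1.89, SE 0.11). *ICS1*, the main enzyme of salicylic acid synthesis, rose by 0.35 on the log2 scale. The transporter *EDS5* and the signalling genes *EDS1* and *SAG101* fell, by 0.55, 0.31 and 0.44. Without WT replicate 1, WT replicate 2 or *val2* replicate 1, 1 gene was lower. The receptor gene *NPR1* did not pass, at 115 and 120 CPM, against 119.8 and 135 CPM in WT.

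Of 58 tested *WRKY* transcription factor genes, taken by their symbol, 7 were higher and 7 lower at the adjusted p (12.1% each, near the 8.71% and 10.0% of all tested genes), with a median log2 fold change of -0.09. The 4 upregulated DEGs (against 0.920% of all tested genes) were *WRKY38*, *WRKY51*, *WRKY54* and *WRKY62*. *WRKY62*, the closest relative of *WRKY38*, had 19.4 and 24.6 CPM in the libraries labelled *val2*, 2.43 and 2.14 CPM in *val1* and 6.55 and 7.66 CPM in WT (1.63, SE 0.15). The downregulated DEG was *WRKY28*, with 9.97 and 11.9 CPM, against 28.5 and 41.8 CPM in WT (-1.69). Without WT replicate 2 or without *val2* replicate 1, 2 members were lower.

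The cysteine-rich receptor-like kinases (CRKs), many of which stand side by side on chromosome 4, have functions in defense and stress. Of 40 genes taken by symbol, which include a few with a *CRK* synonym, 2 were upregulated and 7 downregulated DEGs (against 0.920% and 2.27% of all tested genes). At the adjusted p, 12 were lower (30%, against 10.0%) and 3 were higher (7.5%, against 8.71%). *CRK10* had 68.1 and 70.7 CPM in the libraries labelled *val2*, 136 and 126 CPM in *val1* and 263 and 221 CPM in WT (-1.80, SE 0.10, edgeR adjusted p = 1.94e-05). *CRK6* and *CRK7*, from the same cluster, were 3.26-fold and 2.68-fold lower, and *CRK23* was 15.4-fold higher. *CRK6*, *CRK8* and *CRK22* have 78%, 83.5% and 83.8% of unique 50-base words. Without *val2* replicate 1 fewer genes were lower, and the DEGs *CRK39*, *CRK8*, *CRK12* and *CRK22* lost their calls. The calls of *CRK8* and *CRK12* were lost without any one of the 4 libraries compared. Neither of these 2 passed with DESeq2 (DESeq2 adjusted p = 0.146 and 0.101).

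Of 13 core genes of hypoxia tested, 4 were downregulated DEGs (against 2.27% of all tested genes) and 8 were lower at the adjusted p (61.5%, against 10.0%), with 5 not past the test, none higher and a median log2 fold change of -0.35. *PDC1*, the pyruvate decarboxylase of fermentation, had 28.9 and 40.6 CPM in the libraries labelled *val2*, 14.2 and 16.97 CPM in *val1* and 145 and 157 CPM in WT (-2.12, SE 0.15, edgeR adjusted p = 0.000131). The transcription factor *LBD41* had 221 and 251 CPM, against 472 and 488 CPM in WT (-1.02). *HRA1*, which holds back the hypoxia response, had 73.3 and 88.0 CPM, against 182 and 168 CPM in WT (-1.12). *ADH1*, the alcohol dehydrogenase, had 85.8 and 92.1 CPM, against 99.0 and 119.6 CPM in WT, and did not pass (0.0710). Only 3 of the 13 were lower without *val2* replicate 1, *HRA1* being at 0.0704 and *HRE1* at 0.102.

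Of 33 jasmonate genes, 2 were downregulated DEGs (against 2.27% of all tested genes). At the adjusted p, 9 were lower (27.3%, against 10.0%) and 2 higher (6.06%, against 8.71%). *AOS* and *AOC1*, of jasmonate synthesis, fell by 0.51 and 0.77 on the log2 scale, and *LOX2* by 0.82. *JAR1*, which joins jasmonate to isoleucine, had 61.4 and 69.2 CPM in the libraries labelled *val2*, against 112 and 181 CPM in WT (-1.16, edgeR adjusted p = 0.00443). The jasmonate-inactivating P450 *CYP94B1* fell by 1.53, and *VSP1* and *VSP2*, late targets of the hormone, rose by 0.67 and 0.96. Without *val2* replicate 1 the lower genes were 3 and none was higher, with *JAR1* at 0.0508 and *CYP94B1* at 0.132. Of 30 rapid touch and wound genes, 5 were higher (16.7%, against 8.71% of all tested genes) and 4 lower (13.3%, near the 10.0% of all tested genes). Of these, the cold regulator *CBF3* was the DEG, with 6.06 and 4.05 CPM, against 1.87 and 2.39 CPM in WT. It lost its call without WT replicate 1 (0.103), WT replicate 2 (0.0663) or *val2* replicate 1 (0.15), and without any one of these 3 libraries none of the 30 was higher. Without *val2* replicate 2, 1 was lower.

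Of the tau class of glutathione S-transferases, which detoxify electrophiles, 5 of 22 were downregulated DEGs (against 2.27% of all tested genes). At the adjusted p, 8 were lower (36.4%, against 10.0%) and 1 higher (4.55%, against 8.71%). *GSTU5* had 242 and 271 CPM in the libraries labelled *val2*, against 432 and 602 CPM in WT (-1.01). *GSTU20* went the other way, with 858 and 672 CPM, against 428 and 436 CPM in WT (0.82). Without WT replicate 2 the lower genes were 3. Among 6 heat shock genes tested, the chaperone *HSP101* had 15.3 and 18.0 CPM in the libraries labelled *val2*, against 39.7 and 50.5 CPM in WT (-1.44, SE 0.17, edgeR adjusted p = 0.00121), and *HSP90.1* fell by 0.83. Only 1 heat shock gene was lower without WT replicate 2, *val2* replicate 1 or *val2* replicate 2. Of 8 copper genes, *FSD1* was the DEG, and the transporter *COPT1* fell by 0.50 on the log2 scale. Each was 12.5% of the list, against 8.71% of all tested genes higher and 10.0% lower. The copper/zinc dismutases *CSD1* and *CSD2*, at log2 fold changes of 0.00 and -0.05, did not pass the test. No copper gene was lower without WT replicate 2 or *val2* replicate 1.

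The XTH enzymes cut and rejoin xyloglucan, and of 23 tested, 5 were downregulated DEGs (against 2.27% of all tested genes). At the adjusted p, 11 were lower (47.8%, against 10.0%) and 3 higher (13%, against 8.71%), with a median log2 fold change of -0.53. *XTH23* had 119 and 139 CPM in the libraries labelled *val2*, 41.9 and 49.2 CPM in *val1* and 402 and 465 CPM in WT (-1.75, SE 0.12, edgeR adjusted p = 7.46e-05). *XTH4* had 408 and 383 CPM, against 735 and 677 CPM in WT (-0.84). Of 15 expansins, which loosen the wall, the median log2 fold change was 0.03. *EXPA8* fell by 2.03 and *EXPA11* by 1.61 on the log2 scale. *EXPA11* had 4.86 and 3.54 CPM in the libraries labelled *val2*, 16.0 and 15.2 CPM in *val1* and 12.8 and 12.9 CPM in WT. In all, 5 expansins were lower at the adjusted p (33.3%, against 10.0% of all tested genes) and 1 was higher (6.67%, against 8.71%). Fewer were lower without any one of the 4 libraries compared.

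Of 27 early auxin genes with an AUX/IAA symbol, 7 were lower (25.9%, against 10.0% of all tested genes) and 2 higher (7.41%, against 8.71%) at the adjusted p, and none was a DEG. Without WT replicate 2, 1 was lower, and without WT replicate 1 or *val2* replicate 1 none was higher. Of 52 SAUR genes, 2 were downregulated DEGs (AT4G22620 and AT1G75590), against 2.27% of all tested genes. At the adjusted p, 6 were lower (11.5%, near the 10.0% of all tested genes) and 1 higher (1.92%, against 8.71%). The SAUR-like gene AT4G22620 had 0.769 and 0.749 CPM in the libraries labelled *val2*, 0.689 and 1.14 CPM in *val1* and 5.96 and 11.2 CPM in WT (-3.50, SE 0.37, edgeR adjusted p = 0.000698). AT1G75590 had 2.215 and 2.315 CPM, against 4.77 and 8.275 CPM in WT (-1.53), and lost its call without WT replicate 2 (0.0627), *val2* replicate 1 (0.0746) or *val2* replicate 2 (0.0571). Of 8 type-A response regulators of cytokinin signalling, *ARR7* and *RR16* fell (25%, against 10.0% of all tested genes), by 0.27 and 0.95. None was a DEG. With a library of either genotype left out, 1 response regulator or none was lower, and 4 SAUR genes were lower without WT replicate 2 or *val2* replicate 2. Of 11 calmodulin-like genes, 4 were lower at the adjusted p (36.4%, against 10.0% of all tested genes) and none higher. Among the lower ones was *TCH3* (*CML12*), with 993 and 1123 CPM, against 1721 and 1848 CPM in WT. Fewer were lower without WT replicate 2 or *val2* replicate 2.

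Of 20 gibberellin genes, 1 was an upregulated DEG (against 0.920% of all tested genes). At the adjusted p, 2 were higher (10%, near the 8.71% of all tested genes) and 3 lower (15%, against 10.0%). *GA3OX1*, which makes the bioactive hormone, had 4.49 and 3.23 CPM in the libraries labelled *val2*, 10.7 and 11.6 CPM in *val1* and 1.35 and 1.03 CPM in WT (1.71, SE 0.24, edgeR adjusted p = 0.00242). The DELLA repressor *RGA* had 85.6 and 79.0 CPM in the libraries labelled *val2*, 148 and 163 CPM in *val1* and 141 and 160 CPM in WT (-0.87, SE 0.09). The catabolic *GA2OX6* and *GA2OX2* fell by 0.52 and 0.61. *GAI*, the other main DELLA, had 14.2 and 13.1 CPM, against 9.81 and 15.6 CPM in WT, and these ranges overlap. Without WT replicate 2, *val2* replicate 1 or *val2* replicate 2, 1 gibberellin gene was lower.

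None of 40 nuclear genes of the photosystems, antennae and Rubisco was a DEG, but 16 were lower at the adjusted p (40%, against 10.0%) and none was higher, with a median log2 fold change of -0.21. The 16 changes lay between -0.22 and -0.62. *LHCB1.3*, of the light-harvesting antenna, had 7376 and 6770 CPM in the libraries labelled *val2*, 9450 and 8627 CPM in *val1* and 9381 and 8933 CPM in WT (-0.37, SE 0.07, edgeR adjusted p = 0.00665). *RBCS1A*, of the small subunit of Rubisco, had 2982 and 2750 CPM, against 3501 and 3298 CPM in WT (-0.25). Some of these genes have near copies, with 83% of unique 50-base words in *LHCB1.3* and 76.5% in *LHCB2.1*. The number that was lower was 4 without WT replicate 1, 5 without *val2* replicate 2 and 7 without WT replicate 2, without *val2* replicate 1 or with library size alone.

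The lists nearest to the question of the study, flowering and Polycomb silencing, held few calls. Of 20 tested genes for VAL proteins and Polycomb subunits, 4 were higher at the adjusted p (20%, against 8.71% of all tested genes) and none lower. *VAL2* was the DEG, and the PRC1 ring finger *BMI1A* and the PRC2 subunits *MSI1* and *FIE* rose by log2 fold changes of 0.52, 0.45 and 0.31. *BMI1A* had 14.8 and 16.8 CPM in the libraries labelled *val2*, 35.5 and 34.7 CPM in *val1* and 11.1 and 10.9 CPM in WT, and its call was lost without WT replicate 2 (0.0594) or *val2* replicate 2 (0.0678). That of *FIE* was lost without any one of the 4 libraries. The methyltransferases *CLF* and *SWN* did not pass, at log2 fold changes of 0.30 and 0.07.

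None of 19 floral repressors was a DEG. *FLC* had 5.20 and 6.54 CPM in the libraries labelled *val2*, against 5.08 and 5.40 CPM in WT (log2 fold change 0.16, SE 0.17), and did not pass the test (edgeR adjusted p = 0.553). At the adjusted p, 2 of the 19 were lower (10.5%, near the 10.0% of all tested genes). These were *TEM1* and *TEM2*, repressors of *FT*, which fell by 0.84 and 0.69 on the log2 scale. *TEM1* had 170 and 207 CPM in the libraries labelled *val2*, 103 and 99.98 CPM in *val1* and 279 and 396 CPM in WT. Neither was past the test without *val2* replicate 1. Of 18 floral promoters, 1 was higher at the adjusted p (5.56%, against 8.71% of all tested genes). This was *SPL9*, which rose by 0.46, a call lost without any one of the 4 libraries. *SOC1* (3.51 and 3.20 CPM, against 3.46 and 3.46 CPM in WT) and *FD* (9.35 and 9.97 CPM, against 6.91 and 8.47 CPM in WT) did not pass.

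The organ boundary genes *BOP1* and *BOP2* did not differ beyond their spread. *BOP1* had 3.48 and 2.52 CPM in the libraries labelled *val2*, against 3.30 and 2.88 CPM in WT, and *BOP2* had 15.04 and 10.08 CPM, against 15.2 and 11.9 CPM in WT. In both genes the ranges of the 2 genotypes overlap (edgeR adjusted p = 0.932 and 0.751). Of the 20 meristem and boundary genes tested, 2 were higher at the adjusted p (10%, near the 8.71% of all tested genes). These were *ATH1* and *LOF1*, with log2 fold changes of 0.46 and 0.70. *ATH1* had 39.7 and 33.8 CPM in the libraries labelled *val2*, 64.8 and 61.2 CPM in *val1* and 27.0 and 26.5 CPM in WT. The meristem gene *STM* had 70.7 and 66.0 CPM, against 58.3 and 58.0 CPM in WT, just outside the threshold (0.0502). Without WT replicate 2 or without *val2* replicate 1 none of the 20 was higher.

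Of 21 listed seed maturation genes, a class that VAL proteins are known to repress, 11 were among the genes counted and 8 were tested. None of the 8 passed, and most of the others could not be assessed. The oleosin *OLEO1* had 0.677 and 0.477 CPM in the libraries labelled *val2*, against 0.159 and 0.0970 CPM in WT (edgeR adjusted p = 0.0748), and the albumin *SESA1* had 22.4 and 26.4 CPM, against 26.6 and 33.5 CPM in WT. *ABI3* had 2 and 2 counts in the libraries labelled *val2*, against 0 and 4 counts in WT, and was not tested. Also not tested were *LEC2*, with 0 and 0 counts, against 0 and 8 counts in WT, and *CRA1*, with 0 and 0, against 3 and 4. *LEC1* and *FUS3* were not among the genes counted.

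**Figure D4:**
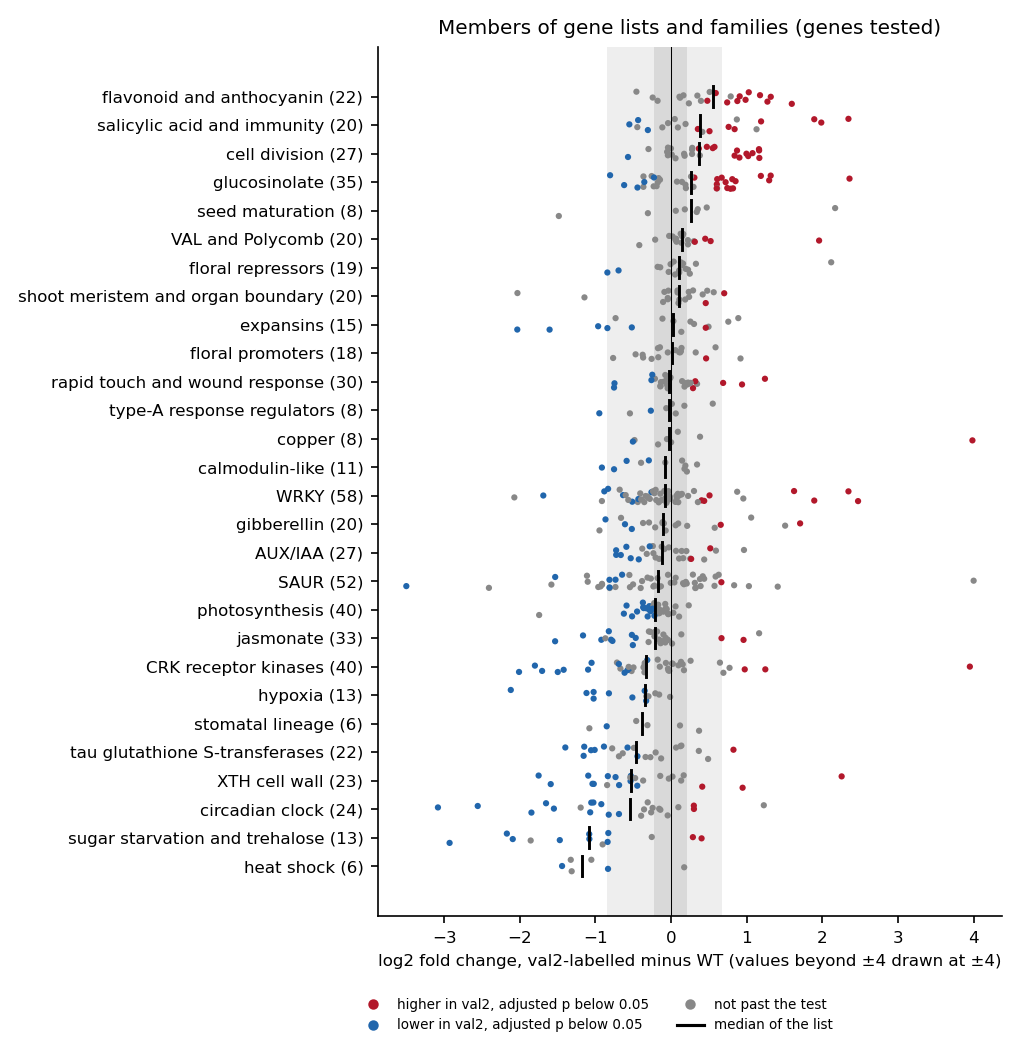
Log2 fold change of each tested member of the gene lists and families in the libraries labelled *val2* against WT, with the number tested in brackets. Red and blue points have an adjusted p below 0.05, bars are list medians, and the grey bands hold 50% (-0.23 to 0.21) and 90% (-0.85 to 0.67) of all tested genes.

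Markers of the tissue were checked for the label of a shoot apex. *STM* and *KNAT1* (55.3 and 49.9 CPM in the libraries labelled *val2*, against 52.1 and 45.5 CPM in WT) were found in every library, as were the antenna genes of green tissue. Of the markers of floral organs, *PI* had 0 and 0.238 CPM in the libraries labelled *val2*, against 0.199 and 0.808 CPM in WT, *SEP1* had 0 counts in the 4 libraries and *SEP2* 0 and 0 counts, against 2 and 0 counts in WT. Of the root hair markers in the table, *COBL9* had 4 and 0 counts in the libraries labelled *val2* and 0 counts in WT, and *PRP3* had 0 and 3 counts, against 0 counts in WT. Among 6 stomatal lineage markers, *TMM* had 5.14 and 5.28 CPM, against 9.18 and 9.60 CPM in WT, and fell by 0.85 on the log2 scale. *SPCH*, *MUTE* and *FAMA* and the 4 trichome markers did not pass the test.

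DEGs were more frequent on the chromosome of *VAL2*. On chromosome 4, 5.02% of 3249 tested genes were DEGs, against between 2.74% and 2.95% on the other 4 chromosomes. Changes of 8-fold or more were found in 12 upregulated and 12 downregulated DEGs there, against 7 and 6 on chromosome 1, 3 and 3 on chromosome 2, 3 and 5 on chromosome 3 and 2 and 4 on chromosome 5. Of the 20 tested genes on each side of *VAL2*, 40 in all, *GPX7*, a glutathione peroxidase, was an upregulated DEG, with 2.89 and 2.93 CPM in the libraries labelled *val2*, against 1.19 and 1.16 CPM in WT (2.47-fold higher). AT4G31805, annotated as a WRKY family protein, was a downregulated one, with 2.80 and 3.61 CPM, against 5.76 and 7.56 CPM in WT (-1.06, SE 0.19). The median log2 fold change of the 40 was 0.03. All genotypes are given as Col-0 background, and variation in sequence between the lines was not analysed here.

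**Figure D5:**
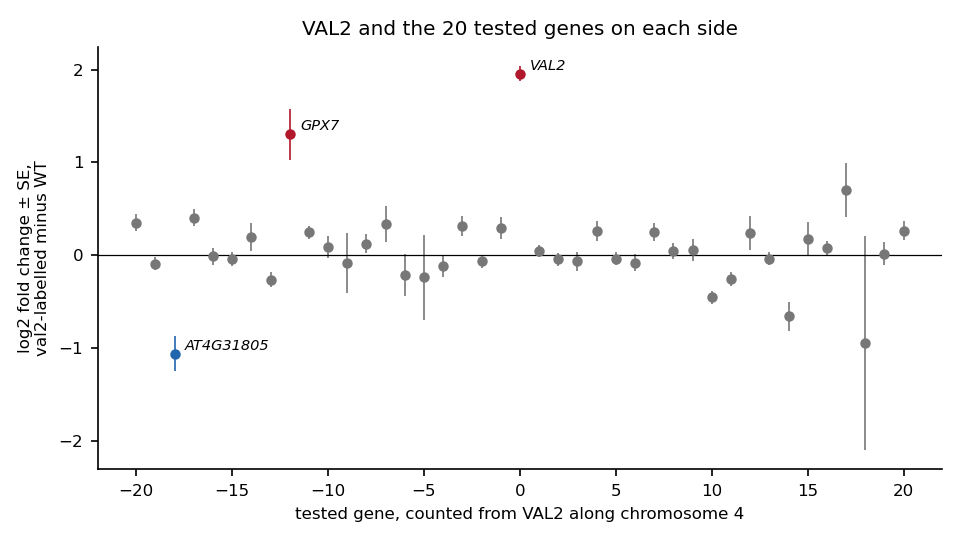
Log2 fold change (± SE) in the libraries labelled *val2* against WT of *VAL2*, at 0 on the horizontal axis, and of the 20 tested genes on each side of it, counted in their order along the chromosome. *VAL2* (1.96) and *GPX7* are upregulated DEGs, AT4G31805 (-1.06) is a downregulated DEG and the other 38 genes are not DEGs.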

How the data were processed

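RNA-seq was done on dissected shoot apices, in 2 libraries each of *val2*, *val1* and WT. According to the paper's methods and the submitters' processing notes, the authors trimmed reads with cutadapt, aligned them with STAR to TAIR10 and assembled them with StringTie and Araport11. The deposited table of the authors holds estimated counts per gene from prepDE.py3, which need not be true read numbers, and the deposited TPM values are scaled for length and depth. DESeq2 is also named in those notes. Whether counting used strand is not given in the sources used here.

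Genes were tested with edgeR 4.0.16 in R 4.3.3 (filterByExpr, TMM, glmQLFit and glmQLFTest, all 6 libraries in 1 fit, *val2* minus WT). DEGs had an adjusted p below 0.05 and a change of at least 2-fold. The 77 rows with no identifier were left out, 0.00191% to 0.00266% of counts. Genes were named by a rule: the *VAL* genes, the 15 strongest rises and 15 strongest falls among DEGs averaging 5 CPM or more whose genotypes did not overlap, the 3 most abundant DEGs in each direction, and members of a list where it is described. Members and gene lists were chosen with earlier results of these data known. Alternatives were DESeq2 1.42.0, limma 3.58.1 on TPM, other scalings and filters, a replicate block and leaving out each library. The fit was tested on simulated data.

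The depth was 22635808 to 33474422 counts per library, so that genes of low CPM have wide counting error. Replicate numbers do not pair the libraries (correlations of same-numbered deviations between 0.0309 and 0.0406).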

Additional observations from a re-analysis of the deposited data

How the results depend on the processing

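Of 206 genes followed, 64 passed the test under every alternative that gave them a value (for 5 of the 64, the 3 on TPM gave none) and 1 changed direction, *VAL3*, whose log2 fold change was 0.0517 with library size alone and between -0.113 (without WT replicate 2) and 0.0640 (without WT replicate 1) with 1 library left out, 0.0330 without *val2* replicate 1. The number of DEGs (673, with 194 higher and 479 lower) was 291 with glmTreat at 1.5-fold (95 higher, 196 lower), 344 with limma on log2(TPM + 1) (103 higher, 241 lower) and 341 without a filter (105 higher, 236 lower). With no fold threshold it was 3956 (1838 higher, 2118 lower). On log2(TPM + 0.1), 211 DEGs were higher and 269 lower. Leaving out 1 library gave between 388 and 704 DEGs, 126 to 206 higher and 262 to 525 lower. Scaling by library size alone shifted the median by 0.08 on the log2 scale and gave 265 higher and 401 lower. The replicate numbers name the libraries and do not pair them. With the replicate block there were 700 DEGs (203 higher, 497 lower), and *VAL1* passed the test (edgeR adjusted p = 0.00959). With 2 libraries a genotype, small changes rest on single libraries.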
